A study of Homo sapiens with 4 samples.

Results

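RAB genes encode the Rab GTPases, the largest branch of the Ras superfamily of small GTPases. The members described here were the protein-coding genes of the GENCODE annotation (version 44, hg38) whose symbol is RAB followed by digits and, where present, 1 letter and 1 digit. Names of effectors such as RAB3IP were not taken, which left 63 of 20046 protein-coding genes. To find m6A modified transcripts in adenocarcinoma of the esophagogastric junction (AEG), the study performed meRIP-seq in OE-19, an established AEG cell line grown in RPMI1640 medium. The 4 samples were 2 replicates pulled down with an m6A antibody (IP) and 2 replicates of input RNA without the antibody. Both groups were the same cultured line with no treatment named in the labels, and the study's text calls the replicates biological. A list of peaks was analysed for each IP replicate, and the input samples had no values here.

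A Rab protein switches between a GTP-bound form that sits on a membrane and a GDP-bound form held in the cytosol. Exchange factors (GEFs) load GTP, GTPase-activating proteins (GAPs) trigger its hydrolysis, and the active form recruits effectors such as tethers, motors and adaptors. Each Rab marks its own compartments, so the family sets the identity of the ER, Golgi, endosomes, lysosomes and secretory granules. N6-methyladenosine (m6A) is laid on the A of short motifs, of which GGAC is a common form, by the METTL3 and METTL14 writer complex. In mRNA it is known to lie often near stop codons and in 3′ UTRs.

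A peak is a stretch of the genome where IP fragments pile up. Its summit is the highest point, and its fold enrichment is a ratio at the summit over the local background of the peak caller. A gene was counted as carrying a peak when a summit lay in 1 of its exons. A peak overlapping a peak of the other replicate by at least 1 bp was called shared. Replicate 1 held 24607 peaks and replicate 2 held 19318, with median fold enrichments of 5.27 and 5.08. The lists hold no read numbers, so depth is unknown. A missing peak can also be a transcript that was absent or too scarce, because expression was not measured here. Of 6 epithelial markers, CDH1 alone carried an exonic peak, in both replicates, and of 5 markers of other cells COL1A1 alone did, in replicate 1. These lists could therefore not check the cell type.

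The sequence under the strongest peaks is shown first, because it places the possible methylated base relative to each stop codon. For 11 of the 12 RAB genes with the largest shared peak, 30 bases of the RNA strand are given from hg38. The capitals mark the GGAC nearest the middle between the 2 summits or, where none lay within 50 nt of it, the nearest AGAC, TGAC or GAAC. The genes are ordered by the geometric mean of their fold enrichments, and the same order is kept in the description of the peaks.
RAB30: ggagatctggcgaTGACtgtggctcccgct
RAB27B: aaatgtatctgctAGACtctacatagaaac
RAB26: gggagcggcaagtGGACagactttgccacg
RAB8B: tgagagcaccactGAACttagacctctcaa
RAB7B: ggagtaaaggtctGGACcccacatgctggg
RAB33B: ttggaaataaatgTGACttgagaagtgcca
RAB40C: actgggcaccagtGGACtcgccccatggcc
RAB40B: ttgagcgcctggaGGACagggctttgtctg
RAB28: tgggtgggcccgaGGACttctaggaacttg
RAB36: gactattccttctGGACtctgtgcctttgc
RAB9A: cacaaagcttccaGAACttaagtaactgga

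GGAC was marked in 6 of these 11 windows, those of RAB26, RAB7B, RAB40C, RAB40B, RAB28 and RAB36. In the RAB27B window, at chr18:54889399-54889428 on the plus strand, the marked AGAC overlapped the stop codon, and its A lay 3 nt past the first base of that codon. In the RAB30 window, at chr11:82982074-82982103 on the minus strand, the A of TGAC lay 79 nt past the first base of the stop codon. In the RAB28 window, at chr4:13368483-13368512 on the minus strand, this distance was 63 nt for the A of GGAC. The A of GAAC in the RAB8B window, at chr15:63263721-63263750, lay 119 nt past it, and the A of GGAC in the RAB26 window, at chr16:2153659-2153688, lay 255 nt past it. The windows of RAB33B and RAB9A lay inside the coding sequence (CDS). A motif under a peak is a description of the sequence and not a mapped site, since a peak is far wider than a motif.

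First, the number of RAB genes with an exonic peak was determined. In replicate 1, 35 of the 63 genes carried one (55.6%, 95% Wilson interval 43.3% to 67.2%), beside 42.4% of all protein-coding genes. In replicate 2, 25 genes did (39.7%, 28.5% to 52.0%), beside 34.1% of all genes. A peak in both replicates was found for 24 genes (38.1%, 27.1% to 50.4%, all genes 33.4%), and a peak in either for 36 (57.1%, 44.9% to 68.6%, all genes 43.1%). Long transcripts offer more room for peaks, so the share among all genes of the same exonic length was also computed. It was 41.7% in replicate 1, 33.1% in replicate 2, 32.3% in both and 42.4% in either. The RAB share thus lay above both background values in replicate 1, and so did the share in either replicate, with intervals just clear of them. The intervals in replicate 2 and in both replicates held the background. In replicate 1 the excess depended on the settings. Matching on transcript length gave 43.5%, inside the interval, and so did counting any overlap of a peak with an exon, with 43.5% of all genes. At q of 1e-05 or less, 30 RAB genes remained (47.6%, 35.8% to 59.7%, all genes 38.5%). At a fold enrichment of 5 or more, 24 did (38.1%, 27.1% to 50.4%, all genes 30.4%). The intervals cover counting error only and treat genes as independent, and no test was made.

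**Figure D1:**
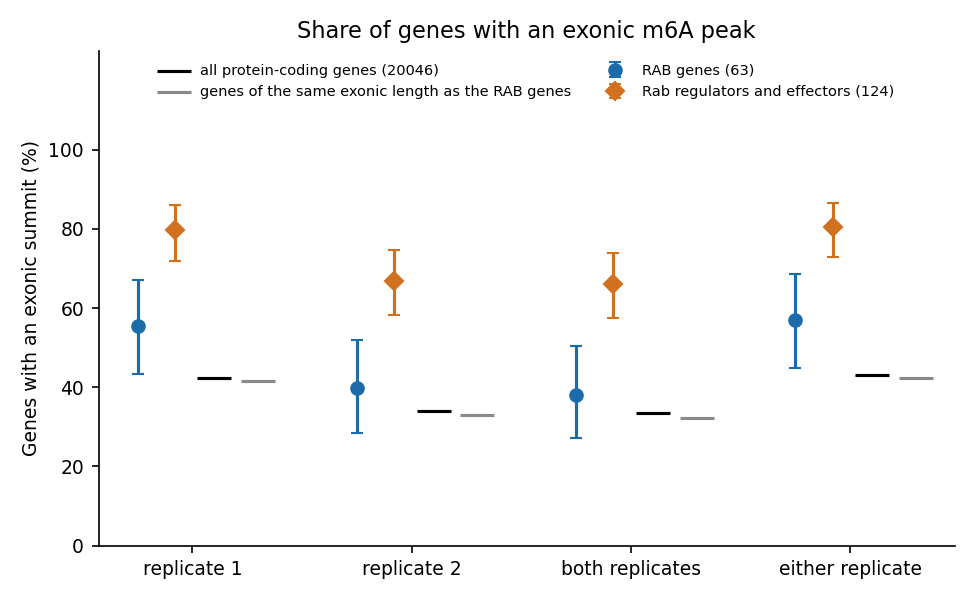
The share of genes with an exonic m6A summit (%) is plotted for replicate 1, replicate 2, both and either, with 95% Wilson intervals for the 63 RAB genes (circles) and the 124 Rab regulators and effectors (diamonds). Bars mark all protein-coding genes and genes of the same exonic length as the RAB genes. The RAB circles run from 38.1% to 57.1%, and the regulators lie from 66.1% to 80.6%, where genes of their own, greater length had 44.4% to 55.2% (not drawn).

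The 24 genes with a peak in both replicates came from each role group. They were RAB3D, RAB6C, RAB6D, RAB7B, RAB8A, RAB8B, RAB9A, RAB13, RAB17, RAB19, RAB20, RAB21, RAB22A, RAB26, RAB27B, RAB28, RAB29, RAB30, RAB33B, RAB35, RAB36, RAB40B, RAB40C and RAB43. A further 11 carried a peak in replicate 1 alone, namely RAB3A, RAB5A, RAB5B, RAB6B, RAB7A, RAB10, RAB11B, RAB14, RAB15, RAB23 and RAB25. RAB3B carried one in replicate 2 alone. The other 27 had no exonic summit in either list. They were RAB1A, RAB1B, RAB2A, RAB2B, RAB3C, RAB4A, RAB4B, RAB5C, RAB6A, RAB9B, RAB11A, RAB12, RAB18, RAB24, RAB27A, RAB31, RAB32, RAB33A, RAB34, RAB37, RAB38, RAB39A, RAB39B, RAB40A, RAB41, RAB42 and RAB44. The members without a peak had shorter 3′ UTRs, with a median of 1332 nt against 2251 nt for those with a peak in both. The same held over all protein-coding genes, with 617 nt and 1450 nt.

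Among the 17 ER and Golgi Rabs, 8 carried a peak in both replicates (47.1%, 26.2% to 69.0%), beside 32.4% of genes of the same length. The groups were small, and in each of them the interval for a peak in both replicates held the share of genes of the same length. RAB30, a Golgi Rab, had the strongest shared peak of the family. Its fold enrichment was 21.2 in replicate 1 and 13.3 in replicate 2, rank 68 among the 6620 protein-coding genes with a shared exonic peak. The summits lay 2 bp apart in the last of 6 exons, at 83 and 81 nt past the start of the stop codon. The peaks shared chr11:82981909-82982384. A second RAB30 peak lay in the CDS in exon 5, with 7.52 in replicate 1 and 5.05 in replicate 2. RAB30 thus held 2 peaks at closely matching places in both lists.

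RAB33B, a Golgi Rab that also binds the autophagy factor ATG16L1, showed the widest gap between the replicates. Its CDS peak reached 15.0 in replicate 1 and 4.55 in replicate 2, a ratio of 3.29. The shared stretch was chr4:139472724-139473087 in the last of 3 exons. RAB36, another Golgi-associated Rab, had values of 6.34 and 6.83 at a peak in the 3′ UTR more than 2 kb from the stop codon, at 2224 and 2189 nt. A second shared RAB36 peak had 3.80 and 4.32, with summits at 398 and 752 nt.

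RAB43 and RAB19 are Golgi Rabs as well. RAB43 had 4 exonic peaks in each list, of which 3 lay in the CDS and 1 lay 2903 and 2902 nt past the start of the stop codon. The latter was the strongest in both, with 6.38 and 3.93. RAB19 was 1 of few members with the higher value in replicate 2, with 5.06 and 7.54 at 167 and 169 nt past the start of the stop codon. RAB29, which recruits the kinase LRRK2, had 4.96 and 3.31 at 178 and 177 nt.

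RAB6C and RAB6D are RAB6-like genes in a single exon on chromosome 2, and their values cannot be assigned to 1 of them with certainty. The 101-nt windows around their 5 summits matched the other gene at 98.0% to 100% identity. RAB6D had 10.0 and 5.81, with summits 180 bp apart in the CDS. RAB6C had 6.79 and 4.23 at its shared peak, and a further CDS peak with 7.69 in replicate 2 alone. RAB6B, a brain-enriched RAB6 form, had a 3′ UTR peak of 5.02 in replicate 1 alone, and RAB6A had none.

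Of the 8 early endosome Rabs, 6 carried a peak in replicate 1 and 3 of these also in replicate 2. Genes of the same length had 46.7% in replicate 1, inside the interval of 40.9% to 92.9%, and 37.3% in both, beside 37.5% of the group. RAB20, a Rab of endosomes and phagosomes, had 6.60 and 6.19, with summits in the CDS at 36 and 43 nt before the stop codon. These values nearly matched, and the peaks were over 1 kb wide, at 1063 and 1070 bp. RAB21, which acts in integrin endocytosis, had 3.79 and 3.36, with summits 36 nt before the stop codon and at it. RAB22A, a regulator of early endosome sorting, had 6.20 and 2.07 at 25 and 45 nt past the start of the stop codon. RAB21 has a 3′ UTR of 14613 nt and RAB22A of 7804 nt, and in both the shared summits kept close to the stop codon.

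RAB5A, the classical early endosome Rab, carried a single peak in replicate 1, in the 5′ UTR with 2.81. RAB5B had 2.21 in the 3′ UTR, and RAB14, which acts between the Golgi and endosomes, had 4.46 in the 5′ UTR. All of these peaks of RAB5A, RAB5B and RAB14 were in replicate 1 alone.

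In the recycling group, 5 of 8 genes carried a peak in replicate 1 and 2 in both, where 3.30 and 2.51 would be reached at the share of genes of the same length. RAB17, an epithelial Rab of polarised sorting, had 3 shared exonic peaks. The strongest had 7.30 and 5.69 and lay outside the transcript with the longest CDS, in a transcript annotated as a retained intron. The peak in the 3′ UTR had 5.21 and 4.92, and that in the 5′ UTR had 4.77 and 2.59. On the transcript with the longest CDS, RAB17 was the one member with a 5′ UTR summit in both replicates. RAB35, a Rab of endosome recycling at the plasma membrane, had 8.74 and 4.36 in its 3′ UTR, at 256 and 86 nt. A second shared RAB35 peak, with 6.14 and 4.30, also lay in an exon of RAB35-AS1, and without strand its source could not be told apart.

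RAB25, the epithelial relative of RAB11, had a 5′ UTR peak of 3.16 in replicate 1 alone. RAB11B, a general recycling Rab, had 2 CDS peaks with 4.33 and 3.21 in replicate 1. The first of these also lay in an exon of RAB11B-AS1. RAB15 had 2 peaks in the 3′ UTR in replicate 1, both at 2.48.

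In the late endosome and lysosome group, 2 of 9 genes had a peak in both replicates (22.2%), beside 27.4% of genes of the same length. RAB7B, which acts between late endosomes and the trans-Golgi network, had the higher value in replicate 2, with 7.35 and 11.4. Its summits lay 45 bp apart in the 3′ UTR, at 490 and 535 nt, and the peaks shared chr1:205978307-205978440. RAB9A, which returns mannose 6-phosphate receptors to the Golgi, had 8.34 and 5.17 in the CDS, 357 and 309 nt before the stop codon. Its windows also matched RAB9BP1 on chromosome 5 at 92.1% and 90.7%. RAB7A, the main late endosomal Rab, had 6.78 in the 3′ UTR and 1.99 in the 5′ UTR, both in replicate 1 alone.

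Among the 15 exocytosis and secretory granule Rabs, 6 had a peak in both replicates (40.0%), beside 33.1% of genes of the same length. RAB27B, which drives granule and exosome release, had 11.6 and 10.4, a ratio of 1.12. Its summits lay 2 bp apart in the last exon, 23 and 25 nt before the stop codon, and the shared stretch was chr18:54889255-54889646. RAB26, a Rab of secretory granules, had 12.9 and 8.12 in the 3′ UTR at 270 and 302 nt. RAB8B, which acts in transport to the plasma membrane, had 14.6 and 6.18 at 73 and 91 nt past the start of the stop codon, in the stretch chr15:63263617-63263834. These 3 genes were the strongest after RAB30.

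The remaining members of this group were lower. RAB3D, a granule Rab of secretory epithelia, had 6.31 and 5.38 at 208 and 227 nt. RAB8A, which acts in apical and ciliary transport, had 3.66 and 3.73 at 932 and 916 nt, and a peak of 4.59 at 34 nt in replicate 1 alone. RAB13, a Rab of tight junction traffic, had 4.75 and 2.09 in its 3′ UTR, and its windows matched a stretch inside RAB5B on chromosome 12 at 99.0%. RAB10, which acts in GLUT4 transport, had 2 peaks of 2.44 and 1.98 in the 5′ UTR in replicate 1. RAB3A had 3.34 at the stop codon in replicate 1, and RAB3B had 3.60 at 16 nt before it in replicate 2.

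The SOCS box Rabs, which join Cullin 5 ubiquitin ligases, had peaks in 2 of 3 genes in both replicates (20.8% to 93.9%), beside 37.2% of genes of the same length. RAB40C held 3 exonic peaks in the first list and 4 in the second. Its shared pair with the largest mean had 8.01 and 7.90 and was 1970 and 1937 bp wide, with summits at 1327 and 1347 nt in the 3′ UTR. A peak in its first exon had 10.2 and 4.50, so the order of its peaks differed between the replicates. A further RAB40C peak had its summit in exon 4 in replicate 2 and in an intron in replicate 1. RAB40B had 9.35 and 5.84 at summits in a 5′ UTR exon of another coding transcript, ENST00000269347.10, and 3.07 and 2.64 in the 3′ UTR. Of the remaining 3 genes, RAB28, a cilium-linked Rab, had 10.1 and 4.67 at 76 and 147 nt past the start of the stop codon, and its window in replicate 1 matched RBMX at 92.1%. RAB23, a Rab of Hedgehog signalling, had 6.03 in replicate 1 alone.

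**Figure D2:**
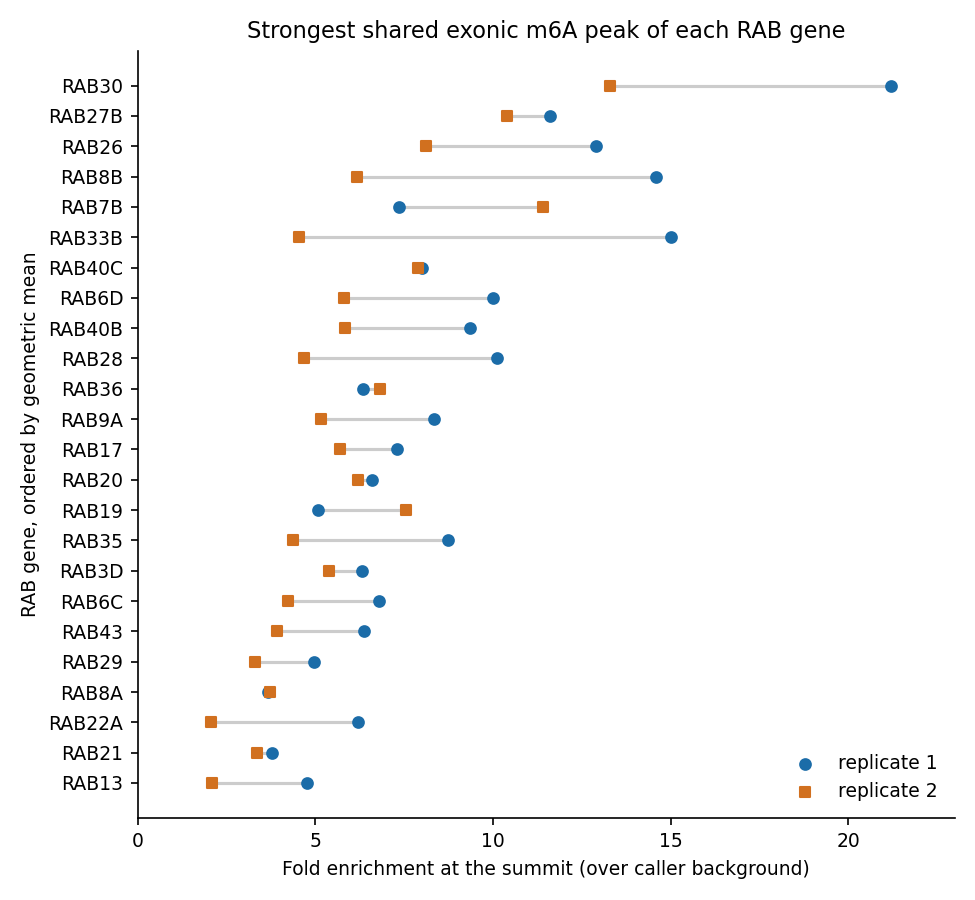
Fold enrichment at the summit is plotted for the strongest shared exonic peak of each of the 24 RAB genes, ordered by geometric mean, with circles for replicate 1 and squares for replicate 2. RAB30 stands at the top with 21.2 and 13.3, and 20 of 24 genes have the higher value in replicate 1.

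The values of the replicates were then set against each other. Over the 24 strongest shared pairs, 1 per gene, 20 were higher in replicate 1. The 4 higher in replicate 2 were RAB7B, RAB19, RAB36 and RAB8A. The median log2 ratio of replicate 1 over replicate 2 was 0.67 (SD 0.60), and it was 0.44 (SD 0.55) over the pairs of all 6620 genes. The shift thus ran the same way across the whole lists, where 81.4% of pairs were higher in replicate 1. Log fold enrichments of the pairs had Pearson's r of 0.575 and Spearman's rho of 0.567 over the 24 genes, against 0.706 and 0.686 over all genes. These are descriptions across peaks from the same 2 libraries. The summits of a pair lay a median of 20.5 bp apart, and 20 of the 24 pairs lay within 50 bp.

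The strength of the RAB peaks was close to that of other genes. The best exonic peak of a RAB gene had a median fold enrichment of 6.34 in replicate 1 (quartiles 4.67 and 9.04), and the median over all protein-coding genes was 6.90. In replicate 2 the medians were 5.69 (quartiles 3.93 and 7.54) and 5.70. Of 61 RAB summits in replicate 1, 35 belonged to shared peaks (57.4%, 44.9% to 69.0%), and of 38 in replicate 2, 36 did (94.7%, 82.7% to 98.5%). The shares over all genes were 60.5% and 95.9%. In replicate 1 the shared RAB peaks had a median of 6.38 and the unshared ones 3.18. At least 2 exonic peaks were found in 18 of the 35 RAB genes with a peak in replicate 1 (51.4%, 35.6% to 67.0%) and in 8 of 25 in replicate 2 (32.0%, 17.2% to 51.6%). Over all genes with a peak the shares were 58.1% and 46.9%, inside both intervals.

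Next, the position of the summits on the transcript with the longest CDS was examined. Of 58 summits placed in replicate 1, 12 lay in the 5′ UTR (20.7%, 12.3% to 32.8%), 16 in the CDS (27.6%, 17.8% to 40.2%) and 30 in the 3′ UTR (51.7%, 39.2% to 64.1%), with the stop codon counted as 3′ UTR. Of 35 in replicate 2, 1 lay in the 5′ UTR (2.86%, 0.506% to 14.5%), 15 in the CDS (42.9%, 28.0% to 59.1%) and 19 in the 3′ UTR (54.3%, 38.2% to 69.5%). Over all protein-coding genes, 60.7% and 60.2% of summits lay in the CDS and 30.4% and 34.0% in the 3′ UTR. In the 5′ UTR lay 8.90% and 5.72%, below the RAB interval in replicate 1 and inside it in replicate 2. The RAB share lay above that of all genes in the 3′ UTR and below it in the CDS, with intervals that did not hold the values of all genes. Several summits can come from 1 transcript, so these intervals are too narrow if such summits are alike.

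RAB transcripts have a short CDS and a long 3′ UTR, with medians of 651 and 2099 nt against 1290 and 878 nt for all genes. The comparison was therefore repeated with 1868 other genes whose CDS was 603 to 803 nt long, a set chosen after the values were seen. In these genes 45.0% and 42.1% of summits lay in the CDS and 43.5% and 49.8% in the 3′ UTR, with 11.5% and 8.03% in the 5′ UTR. The RAB intervals for the 3′ UTR held these values in both replicates. For the CDS the interval held the value in replicate 2 and lay below it in replicate 1. In a window of 200 nt on either side of the stop codon were 16 RAB summits in replicate 1 (27.6%, 17.8% to 40.2%) and 13 in replicate 2 (37.1%, 23.2% to 53.7%), whereas all genes had 24.5% and 27.1% and genes of like CDS length 34.1% and 41.1%.

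Per kb of sequence, the CDS stood above the 3′ UTR. In RAB genes with a summit, the CDS made up 17.2% of the transcript length in replicate 1 and 15.0% in replicate 2, and the 3′ UTR 76.6% and 80.3%. RAB summits per kb came to 0.680 in the CDS and 0.285 in the 3′ UTR in replicate 1, and to 0.883 and 0.208 in replicate 2. The same order was found for genes of like CDS length, with 1.06 and 0.427 in replicate 1 and 0.845 and 0.370 in replicate 2, and for all protein-coding genes, with 0.625 and 0.323, then 0.485 and 0.275. The RAB 5′ UTR was the densest region in replicate 1, with 1.41 per kb, and the least dense in replicate 2, with 0.185 from 1 summit. Genes of like CDS length had 0.802 and 0.441 per kb of 5′ UTR, and all protein-coding genes 0.730 and 0.366. Over all protein-coding genes the 5′ UTR was also the densest region in replicate 1. RAB 3′ UTRs thus held most summits by number but fewer per kb than the CDS.

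**Figure D3:**
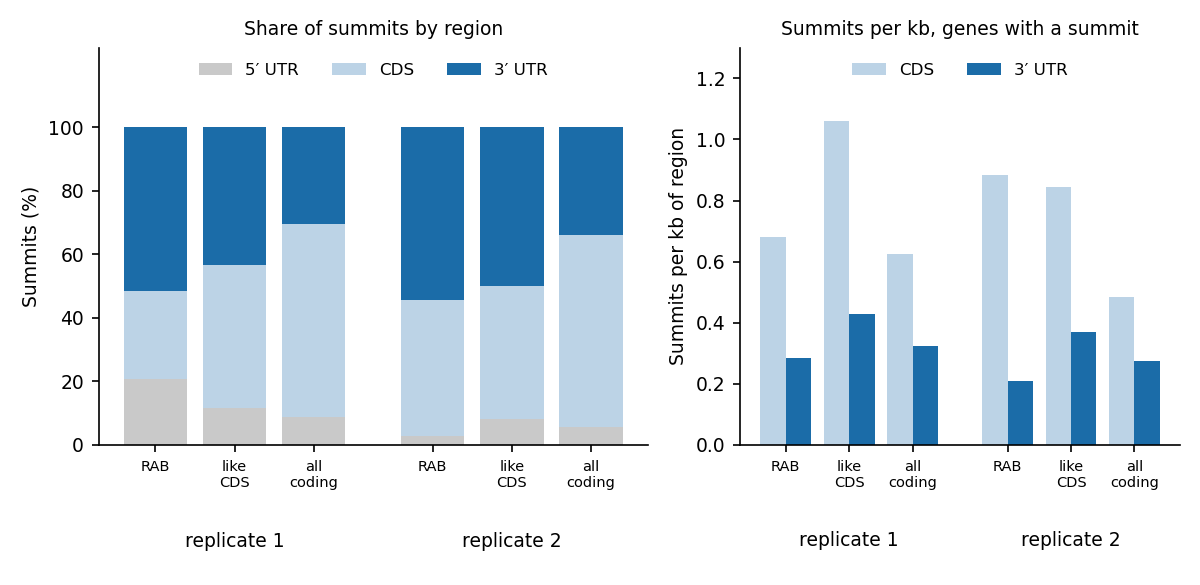
The left panel shows the share of summits (%) in the 5′ UTR, CDS and 3′ UTR, and the right panel summits per kb of CDS and 3′ UTR in genes with a summit, for RAB genes, other genes of like CDS length and all protein-coding genes, per replicate. The 3′ UTR holds 51.7% and 54.3% of RAB summits, but the RAB CDS is denser per kb in both replicates.

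**Figure D4:**
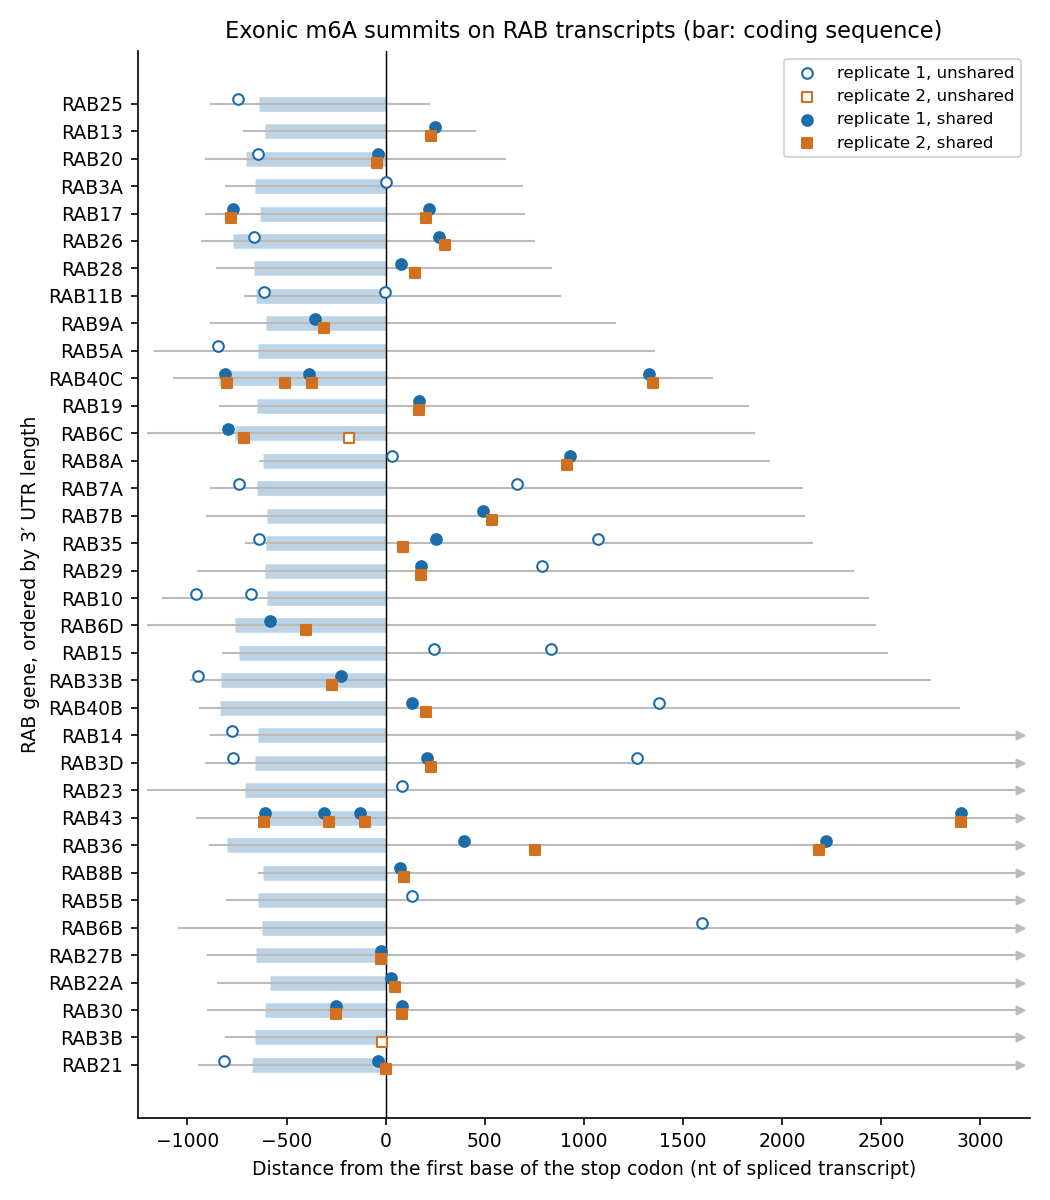
Each exonic summit placed on the transcript with the longest CDS is plotted by its distance (nt) to where the stop codon begins, for the RAB genes ordered by 3′ UTR length, with circles for replicate 1, squares for replicate 2 and filled symbols for shared peaks. Bars are the CDS, and grey lines are the transcript, cut at the edges of the plot. Circles to the left of the bars are the 5′ UTR summits of replicate 1, filled for RAB6C and RAB17 and open for the others. Of the 32 shared summits of replicate 1, 11 lie within 200 nt of the stop codon.

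On the transcript with the longest CDS, the 5′ UTR summits were the least repeatable. Shared summits of RAB35 and RAB40B in 5′ UTR exons of other transcripts are not counted here. In replicate 1, 11 RAB genes had 1 or 2 of them, which were RAB3D, RAB5A, RAB6C, RAB7A, RAB10, RAB14, RAB17, RAB21, RAB25, RAB33B and RAB35. RAB5A, RAB10, RAB14 and RAB25 had no other exonic peak. Of the 26 unshared RAB summits in replicate 1, 10 lay in the 5′ UTR (38.5%, 22.4% to 57.5%), beside 13.8% of the unshared summits of all genes. Of the 32 shared ones, 2 did (6.25%, 1.73% to 20.1%), in RAB6C and RAB17, beside 5.89% of the shared summits of all genes. The lower 5′ UTR share among shared summits was thus found over all genes too. The RAB6C partner peak in replicate 2 had its summit in the CDS. The fold enrichments of the unshared 5′ UTR peaks ran from 1.98 in RAB10 to 6.14 in RAB21. GC content around unshared RAB summits in replicate 1 was 64.1%, and it was 56.6% around shared ones. The part of GC content or of transcription start sites in these peaks was not tested.

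The GGAC motif was then searched in the RNA strand within 50 nt of each RAB summit. It was found at 31 of 61 summits in replicate 1 (50.8%, 38.6% to 62.9%) and at 18 of 38 in replicate 2 (47.4%, 32.5% to 62.7%), close to the 49.7% and 51.7% over all genes. The reverse complement GTCC was found at 31.1% and 31.6% of RAB summits, against 31.5% and 29.5% over all genes. AGAC, TGAC or GAAC stood at 68.9% and 73.7%, against 69.7% and 73.1% over all genes, and a summit can hold more than 1 of these motifs. RAB6C and RAB6D carried few GGAC per kb of transcript (0.976 and 0.816) and RAB11B many (9.43). The RAB11B transcript, with 15 GGAC, had peaks in replicate 1 alone. Other members went the other way. RAB11A had 0.817 GGAC per kb and no exonic summit, and RAB26 had 8.96 and a shared peak of 12.9 and 8.12. A link between GGAC number and peaks was not tested.

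Paralogues with similar proteins were set side by side, an order of description chosen after the values were seen. Of 14 families with at least 2 members, 6 had no member with a peak in both replicates, 5 had 1 and 3 had 2. These families held 34 members, and 33.4% of all protein-coding genes had a peak in both replicates. Whether paralogues were split more often than unrelated genes was not tested. RAB27A and RAB27B, with 72.5% identity in protein sequence, differed, since RAB27B had a strong peak near its stop codon and RAB27A had no exonic summit. RAB33A and RAB33B (62.1%), RAB9A and RAB9B (76.1%) and the pair of RAB40A and RAB40B (88.4%) were split in the same way. RAB8A and RAB8B (82.6%) both had shared peaks, but of 3.66 and 3.73 in RAB8A and 14.6 and 6.18 in RAB8B. RAB1A and RAB1B (93.5%), RAB2A and RAB2B (86.7%), RAB4A and RAB4B (87.3%) and RAB39A and RAB39B (78.4%) had none. A lack of expression of a paralogue and a lack of m6A cannot be told apart here.

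Some RAB summits lay in sequence that occurs elsewhere. At 90% identity or more over at least 91 nt, 10 of 61 windows in replicate 1 and 7 of 38 in replicate 2 had another place in the genome. Beside RAB6C, RAB6D, RAB9A, RAB13 and RAB28, the 3′ UTR window of RAB7A in replicate 1 matched a stretch in LINC02022 at 92.8%, and the window of an unshared RAB29 summit had 232 copies. In addition, 3 RAB43 windows in replicate 1 matched chromosome 16 at 100%, of which 2 matched the pseudogene RAB43P1. How the authors treated reads with several places is not given in the sources used here. Without such summits, 19 genes had a peak in both replicates instead of 24, with RAB6C, RAB6D, RAB9A, RAB13 and RAB28 lost. The summits of other genes were not filtered for copies, so this count has no background share. Furthermore, 10 and 6 RAB summits also lay in an exon of another gene, such as ISY1-RAB43 or an antisense gene, and the lists give no strand.

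Finally, the genes that act on Rabs were examined, as a list of 124 fixed by role. A peak in both replicates was found for 82 of them (66.1%, 57.4% to 73.9%), where genes of the same exonic length had 44.4%. By role these were 27 of 37 GEFs, 27 of 36 GAPs, 25 of 44 effectors and 3 of 7 genes of prenylation, escort and GDP dissociation. At the shares of genes of the same length, 17.1, 15.9, 19.5 and 2.62 genes would be reached. The intervals of GEFs (57.0% to 84.6%) and GAPs (58.9% to 86.2%) lay above those shares, and those of effectors (42.2% to 70.3%, genes of the same length 44.3%) and of the last list held them. The RAB genes themselves had 38.1%. The GAP TBC1D9 had 16.6 and 17.2 in its CDS, rank 66 of 6620 genes, close to RAB30. Among GEFs, RABGEF1, which activates RAB5, had 20.8 and 8.39, and RIN2, another RAB5 GEF, had 12.2 and 12.1. TBC1D24, on the GAP list with TBC1D9, had 20.4 and 8.05.

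The strongest effectors were RBSN, which binds RAB4 and RAB5, with 16.8 and 13.0, and RAB11FIP2, a RAB11 partner, with 10.5 and 15.7. In the last group RABIF had 8.44 and 6.74, and the escort protein gene CHML had 9.05 and 5.78. All 8 of these regulator peaks had their summits in the CDS in both replicates, the region that held 60.7% and 60.2% of the summits of all genes. The summits of RABGEF1, TBC1D24 and RBSN also lay in an exon of another annotated gene.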

How the data were processed

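Groups were taken from the labels, with 2 IP and 2 input samples. The study's methods describe DNase-treated, fragmented total RNA, whereas the labels describe UV-fixed, lysed cells. Per the labels, a directional library kit was used. The methods name TopHat2 for mapping to hg38, and the submitters' processing notes name fastp, HISAT2 and MACS2. Whether the input served as the control is not given in the sources used here, and no versions are. For each peak the authors deposited fold enrichment, a ratio over the caller's background, which shifts with that background. They also deposited −log10 of the p-value, −log10 of the q-value and a score, of which the p-value and score were not used. The least significant peaks had q of 0.0491 and 0.0497.

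Summits were placed on exons of GENCODE version 44, and coordinates are 1-based. Regions were read on the transcript with the longest CDS. For the share expected at equal length, protein-coding genes were split into 20 bins of exonic length. The lists hold no strand and no read numbers, so the number of peaks sets the precision, and 95% Wilson intervals cover counting error only. No test was made, since 1 group had values. Copies were searched with blastn 2.17.0 in windows of 101 nt. Proteins were translated from the annotated CDS and aligned with Biopython 1.88. Python 3.11.15, pandas 2.3.3, pysam 0.24.0 and matplotlib 3.10.9 were used, and the scripts were tested on simulated data.

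The members, gene lists and comparisons were chosen with earlier results of these data known. Every member is named, and values in both replicates are given for those with peaks in both. The 12 with the largest geometric mean of a shared peak, and 2 regulators per role list, are described further, and the window of 1 of the 12 is not reported here. The genes of like CDS length, the summits per kb, the copy search, the second motif set and the protein identities were added after the values were seen. Alternatives covered q and fold enrichment limits, overlap rules, gene assignment, peak midpoints, window sizes, length bins, shared peaks and each replicate left out.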

Additional observations from a re-analysis of the deposited data

Results flagged for a closer look

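Intronic peaks lay outside the exonic counts. Replicate 1 had 12 peaks with a summit in a RAB intron, in 9 genes, and replicate 2 had 10, in 6 genes. They made up 16.4% (9.66% to 26.6%) and 20.8% (11.7% to 34.3%) of the summits in RAB genes. Over all protein-coding genes 12.6% and 19.4% of summits were intronic, inside both intervals, so the RAB shares did not stand apart. They are listed because the exonic counts leave them out. Of these peaks, 5 in replicate 1 and 4 in replicate 2 were shared. The strongest was in RAB17, with 14.3 in replicate 1 and 3.59 in replicate 2, and another RAB17 peak had 7.92 and 6.91. RAB31, an endosomal Rab without an exonic summit, had a shared intronic peak of 6.55 and 3.44. RAB40C had one of 6.72 and 5.76. RAB11A, also without an exonic summit, had 4.57 in replicate 1 alone.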

How the results depend on the processing

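Of 131 alternative values for the main results, 116 stayed within the spread or within 1.5 times the count and 15 moved, and 0 reversed. Most of these values are counts or shares, which have no direction to reverse. A fall from 35 to 24 genes in replicate 1, at a fold enrichment of 5 or more, counted as within these limits. At a fold enrichment of 5 or more, 15 genes had a peak in replicate 2 (23.8%, 15.0% to 35.6%, all genes 20.6%). In both replicates 15 had one (23.8%, 15.0% to 35.6%, all genes 19.3%), and 14 had a shared pair. At this limit the 5′ UTR share was 8.0% in replicate 1 and 0% in replicate 2. The median best fold enrichment, as the mean of both replicates, was then 7.08. Over shared peaks the 5′ UTR share in replicate 1 was 6.25%. The median over all exonic peaks was 4.64. A stop codon window of 400 nt held 48.3% and 65.7% of summits, and one of 100 nt held 22.9% in replicate 2. GGAC was found at 29.5% and 26.3% of summits within 25 nt and at 68.9% and 71.1% within 100 nt. Why the 5′ UTR share fell at these settings was not tested. For single genes, 100 of the 101 values available held. A limit on q or fold enrichment leaves the value of a kept pair as it was, so this count says little about robustness. RAB40B had a geometric mean of 2.85 when shared peaks had to overlap by 50%. Genes whose shared pair was lost at a setting gave no value. Of 24 genes, 21 kept a pair at that overlap and 19 at q of 1e-05 or less. At a fold enrichment of 5 or more, 14 did.

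With 1 replicate left out, 25 to 35 RAB genes had a peak. Leaving out summits with copies, an alternative chosen after seeing the data, gave 30 genes in replicate 1 (47.6%, 35.8% to 59.7%) and 21 in replicate 2. Other genes were not filtered in this way, so these counts have no share over all genes to stand beside. No paired analysis was possible because the input samples had no values here. Depth is unknown, so an absent peak cannot be read as absent m6A.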
